A study of Homo sapiens with 24 samples.

Results

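Aminoacyl-tRNA synthetases are described here through 35 named genes of the deposited count table, 19 for the cytosolic enzymes and 16 for the mitochondrial ones, out of 26485 genes in all. The genes were taken from a list of names and not by their values, and the list does not hold every gene of both families. All 35 were in the table and all 35 passed the filter on low counts, as did 14654 genes in total. RNA was sequenced from SH-SY5Y, an established human neuroblastoma cell line, in 24 libraries that form 8 groups of 3. Of these, 2 groups stopped at 4 h, one untreated and one given copper chloride. The other 6 ran to 24 h: untreated, with DC (a conjugate of dextran and catechin), with TEPA (a copper chelator), with interferon gamma (IFN), with DC and IFN together, and with TEPA and IFN together. No dose is labelled, nor whether libraries within a group come from separate cultures, so p-values measure only the spread between these libraries, which may be technical.

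An aminoacyl-tRNA synthetase joins one amino acid to its matching tRNA, and so sets which amino acid each codon adds to a growing protein. Cytosolic and mitochondrial translation use separate enzymes for most amino acids, and the mitochondrial enzymes are also encoded in the nucleus (symbols ending in 2), while GARS and KARS make both forms and are counted here as cytosolic. The enzymes fall into classes I and II by the fold of the catalytic domain, and several cytosolic enzymes are held together in the multisynthetase complex. Genes of cytosolic synthetases are known targets of ATF4, a factor that drives the integrated stress response and binds with C/EBP partners at a composite element (CARE), and WARS, the tryptophan enzyme, is a classical gene induced by interferon gamma.

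Promoter sequences of 300 bases, from 250 before to 50 after the gene start, were found for 29 of the 35 genes (15 cytosolic, 14 mitochondrial) in the RefSeq table for GRCh38.p14. They were searched on both strands for CARE (TGATGNAA), and CARE was found in 3.67% of all 27305 promoters of that length. Of the 15 cytosolic promoters 5 held a match, against 1 of the 14 mitochondrial ones. Each is shown because the cytosolic genes with this match are among those described below as higher with copper. Bases are printed 5′ to 3′ along the gene, with the match in capitals.
AARS, chr16:70289675-70289704, minus strand: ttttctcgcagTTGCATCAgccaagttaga
CARS, chr11:3057407-3057436, minus strand: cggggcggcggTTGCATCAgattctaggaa
IARS, chr9:92293692-92293721, minus strand: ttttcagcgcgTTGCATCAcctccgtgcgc
MARS, chr12:57488053-57488082, plus strand: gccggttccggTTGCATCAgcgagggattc
TARS, chr5:33440956-33440985, plus strand: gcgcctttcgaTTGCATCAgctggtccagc
YARS2, chr12:32756076-32756105, minus strand: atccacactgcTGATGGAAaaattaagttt
The 5 cytosolic matches have the same 8 letters, TTGCATCA, which is the motif read from the other strand. Counted from the RefSeq start as base 1, the match begins at -187 in AARS and at -13 in IARS, both before the start. It crosses the start in CARS (from -2) and MARS (from -4), and lies just inside the first transcribed bases in TARS (from 3). The YARS2 match begins at -197.

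A motif bound after interferon signalling was searched the same way. The interferon-stimulated response element (GAAA, any 2 bases, GAAA), present in 3.65% of all promoters, was found in none of the 15 cytosolic windows and in EARS2 alone among the mitochondrial ones. WARS held neither motif in this window. No match of one motif overlapped a match of another, and a match is a description of letters, not a bound site.
EARS2, chr16:23557554-23557583, minus strand: cctgccacgcTTTCGCTTTCccaagctgaa

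Library totals ran from 24569980 to 35372442 counts. Among markers of neuroblastoma identity, HAND2 was at 308 to 407 CPM (counts scaled to the same library total, edgeR's CPM) and GATA3 at 136 to 199 CPM over the libraries, although TH, which makes catecholamines in this lineage, was at or near 0. KRT5 and CD3E were at 0 in every library, and leukocyte markers summed to at most 0.862 CPM. Fibroblast and endothelium markers summed to 407 to 620 CPM, mostly from the matrix genes COL3A1 and LUM, with PECAM1 at or near 0. PMP22, a myelin gene of the Schwann cell list, fell with copper (-0.71, SE 0.07) and rose with IFN (0.23, SE 0.07), and NEAT1, a nuclear RNA read as a sign of RNA quality, rose with IFN (0.60, SE 0.17). The part of these genes in the results was not tested. Libraries differed along the GC content of genes. The GC difference of a library, its median log2 level in GC-rich genes (fraction over 0.6) less that in GC-poor ones (below 0.4), was -1.34, 0.654 and 1.38 in the 4 h control and -0.652, 0.799 and 1.35 with copper. In the 24 h control it was -0.973, -0.37 and -0.791, and with IFN 0.599, 0.904 and -0.123, so that IFN libraries were higher than all control libraries. Results are therefore also given from a fit with this trend removed (GC correction) where the fits differ. For IFN the trend goes along with the treatment, so a technical trend and an effect of IFN on GC-rich genes cannot be told apart.

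Transcript levels were compared between genes per kilobase of transcript (CPM per kb, mean over 24 libraries). The median gene of the cytosolic set stood at 78.7 CPM per kb, with a range of 10.9 (FARSA) to 524 (WARS), and the median of the mitochondrial set at 9.59, with a range of 2.03 (SARS2) to 121 (IARS2). WARS led because of the 3 groups with IFN, and its libraries spanned 39.3 to 1720 CPM per kb. GARS, the glycine enzyme of both compartments, followed at 152, then KARS, the lysine enzyme of both compartments, at 148, and RARS, the arginine enzyme, at 123. IARS2, the mitochondrial isoleucine enzyme, was at 121 the only mitochondrial gene among the 10 highest. The next mitochondrial genes were RARS2 at 45.2 and HARS2 at 36.3 CPM per kb. In the 24 h control, the gene pairs for the same amino acid were unequal to very different degrees: the per-length level of AARS was 8.10 ± 0.56 times that of AARS2, that of LARS 12.9 ± 1.36 times that of LARS2, and that of RARS 2.44 ± 0.0952 times that of RARS2 (SD, n = 3).

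**Figure D1:**
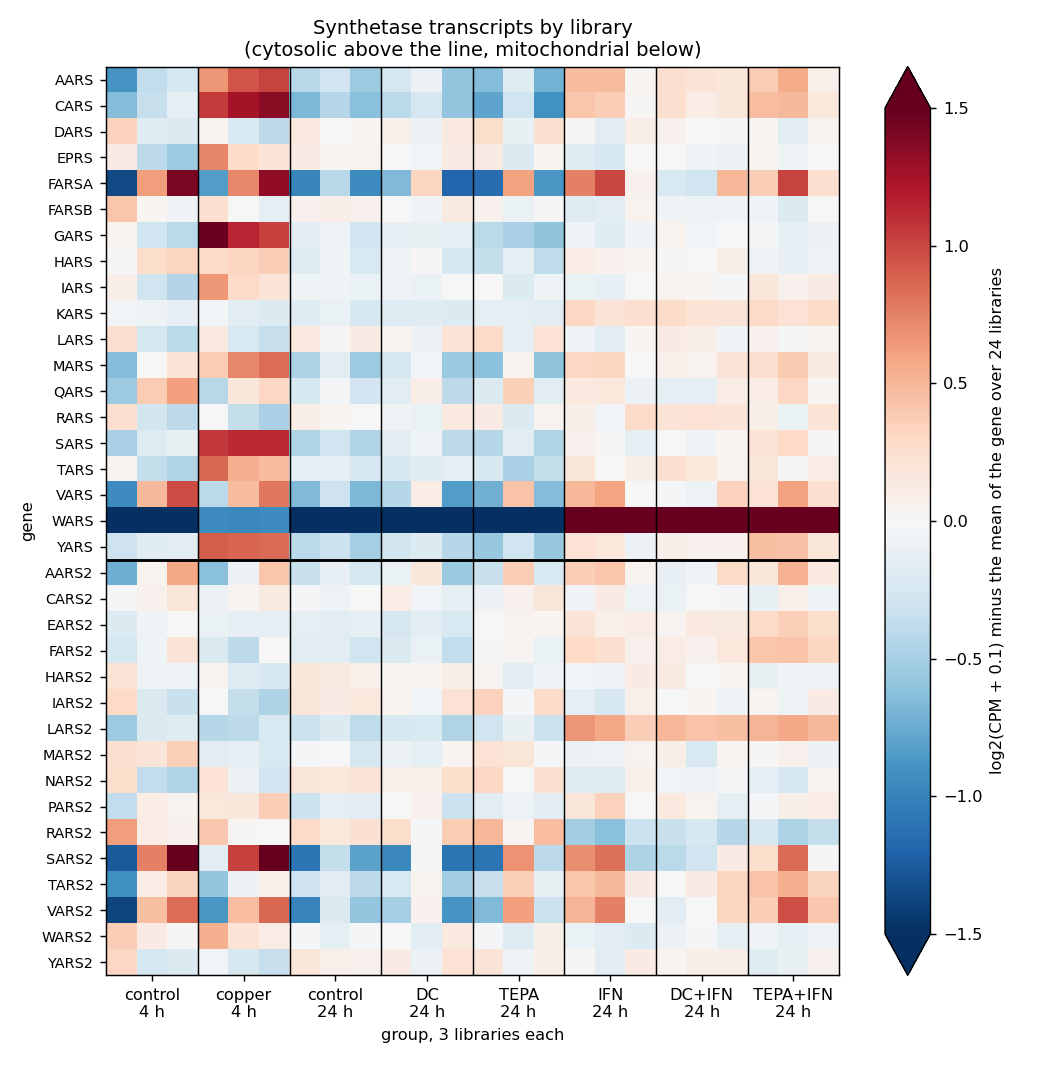
Log2(CPM + 0.1) of each of the 35 genes in each of the 24 libraries, minus the mean of the gene over all libraries; red is higher, blue lower, and the colour scale ends at 1.5 in both directions, which WARS exceeds. The copper libraries are red for 10 cytosolic genes, the 9 libraries with IFN are dark red for WARS, and FARSA, VARS, SARS2 and VARS2 vary strongly between libraries of the same group.

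Copper at 4 h raised 10 of the 19 cytosolic genes and lowered none, while of the 16 mitochondrial genes none rose and 1 fell. Over all genes tested 2.65% rose and 3.2% fell (5.85% called), by edgeR's quasi-likelihood test with a Benjamini-Hochberg adjusted p under 0.05. The median log2 fold change was 0.59 in the cytosolic and -0.07 in the mitochondrial set, beside -0.02 over all genes. The 3 copper libraries lay above the 3 controls without overlap for each of the 10 genes, an arrangement found in that direction in 5.88% of all genes. In RNA from whole cultures, fewer cells of a type and less RNA per cell cannot be told apart.

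CARS, the cysteine enzyme, was at 38.7, 47.9 and 55.5 CPM in the control libraries and at 126, 144 and 155 CPM with copper. It had the largest rise of the set, by 1.58 on the log2 scale (SE 0.16, adjusted p = 2.22e-06). GARS was at 386, 303 and 281 CPM in the controls and at 1030, 824 and 762 CPM with copper. The rise was 1.43 (SE 0.11, adjusted p = 4.65e-08), with the highest value of each group in library 1. AARS, the alanine enzyme, was at 70.9, 101 and 109 CPM in the controls and at 206, 251 and 264 CPM with copper. It rose by 1.36 (SE 0.18), and its lowest copper library was far above its highest control library. SARS, the serine enzyme, was at 99.6, 122 and 129 CPM in the controls and at 291, 303 and 302 CPM with copper, a rise of 1.35 (SE 0.11). YARS, the tyrosine enzyme, was at 116, 127 and 128 CPM in the controls and at 270, 264 and 259 CPM with copper, a rise of 1.10 (SE 0.09). The exons of YARS share 396 bases with S100PBP on the other strand. For SARS and YARS the libraries of a group lay close together and the groups were far apart.

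WARS also responded to copper, with 139, 154 and 160 CPM in the controls and 279, 273 and 279 CPM with copper. Its rise was 0.87 (SE 0.15, adjusted p = 0.0011). TARS, the threonine enzyme, rose by 0.87 (SE 0.11), from 341, 259 and 242 CPM to 600, 483 and 459 CPM. The remaining 3 called genes encode enzymes of the multisynthetase complex: MARS (methionine) with 0.76 (SE 0.20), EPRS, which charges both glutamate and proline tRNAs, with 0.67 (SE 0.14), and IARS (isoleucine) with 0.59 (SE 0.11). MARS was the least stable of the 10. Its adjusted p was 0.0297, and it rose above 0.05 without control library 1 (0.137), control library 2 (0.0704), copper library 2 (0.125) or copper library 3 (0.17). MARS also overlaps DDIT3, a stress-induced transcription factor gene on the other strand, by 355 exon bases, and ARHGAP9, also on the other strand, by 519. DDIT3 rose by 2.99 (SE 0.29). The strand setting of the counting is not given in the sources used here, so reads of such overlapping genes cannot be told apart.

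**Figure D2:**
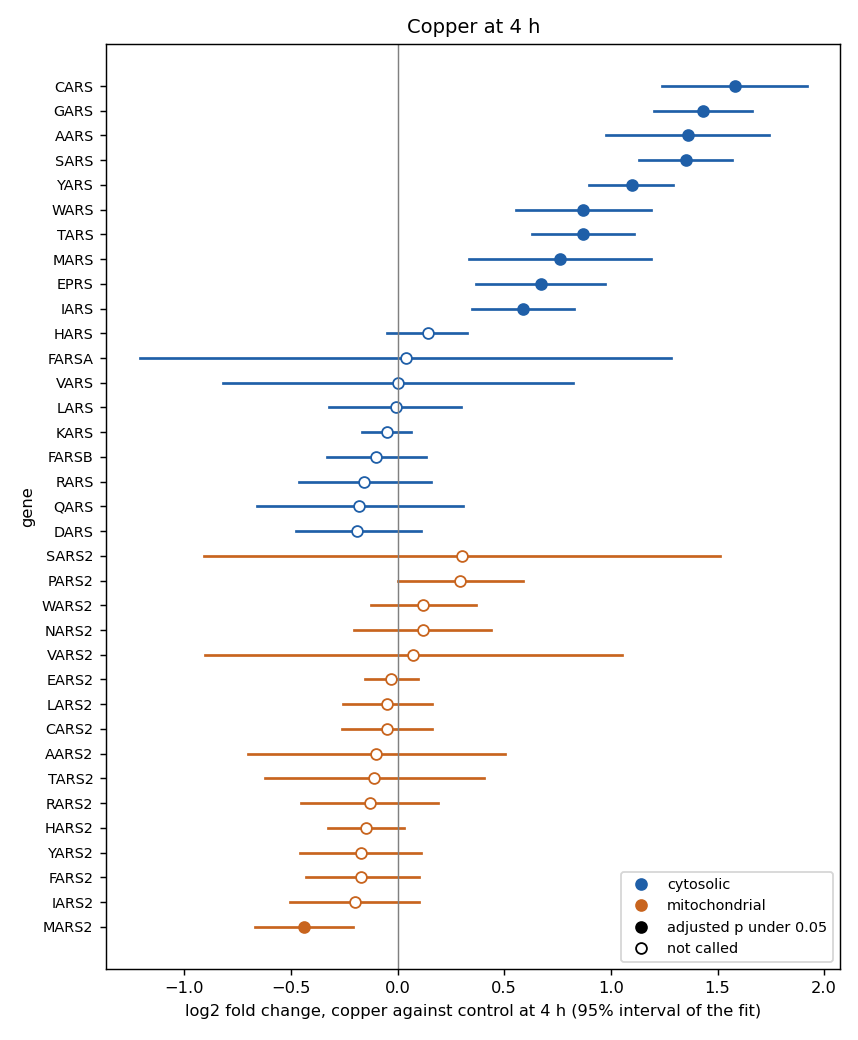
Log2 fold change of each gene with copper against the control at 4 h, with the 95% interval of the fit; cytosolic genes in blue, mitochondrial genes in orange, filled points for an adjusted p under 0.05. The 10 filled blue points run from 0.59 (IARS) to 1.58 (CARS), the other 9 cytosolic genes lie between -0.19 and 0.14, and the 1 filled orange point is MARS2 at -0.44.

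The 9 cytosolic genes not called had fold changes close to 0 compared with the 10, with nothing in between. They were DARS, FARSA, FARSB, HARS, KARS, LARS, QARS, RARS and VARS, at -0.19 to 0.14 on the log2 scale. KARS had the tightest value, -0.05 with a 95% interval of -0.17 to 0.06, at 344, 336 and 326 CPM in the controls and 344, 319 and 308 CPM with copper. FARSA and FARSB, the subunits of the phenylalanine enzyme, had 0.04 and -0.10. For FARSA the interval was wide, -1.21 to 1.28, because its control libraries were at 7.39, 29.3 and 50.6 CPM and its copper libraries at 10.6, 31.3 and 47.8 CPM. Its transcript has a GC content of 60.3%, and within both 4 h groups its level followed the order of the GC difference of the libraries. VARS, the valine enzyme, at 62.6% GC, showed the same order. With GC correction, under which 21.2% of all genes were called, DARS (-0.14, adjusted p = 0.0273) and QARS (-0.23, adjusted p = 0.0275) were called too, as lower. When only the 6 libraries at 4 h were fitted (0.438% of all genes called), 5 genes were called, all higher: CARS, GARS, SARS, WARS and YARS. With the library number as a block in that fit (18.3% of all genes called), all 10 were called.

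By role, 6 of 10 class I genes (CARS, EPRS, IARS, MARS, WARS and YARS) and 4 of 9 class II genes (AARS, GARS, SARS and TARS) rose. EPRS, which charges both glutamate and proline tRNAs, is counted here as class I alone. Of the 8 enzymes of the multisynthetase complex 3 rose, with a median log2 fold change of -0.03. Of the 11 cytosolic genes outside the complex 7 rose, with a median of 0.87. The difference between these subgroups was not tested. Among the 15 cytosolic genes with a promoter sequence, 9 rose and 5 of these 9 have the CARE match shown above (AARS, CARS, IARS, MARS and TARS). None of the 6 that were not called has it. GARS, SARS, EPRS and WARS rose with no match in the window, and YARS is not in the promoter table.

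MARS2, the mitochondrial methionine enzyme on chromosome 2 (197705369 to 197708387, GRCh38), was the 1 mitochondrial gene called. It was at 13.3, 12.9 and 14.4 CPM in the controls and at 10, 10.3 and 9.59 CPM with copper, and the groups did not overlap. The log2 fold change was -0.44 (SE 0.11, adjusted p = 0.0189). The call was lost without control library 3 (adjusted p = 0.0575) and without copper library 3 (0.0643). It was also lost when library 1 of both groups, which had the lowest GC differences, was left out (-0.46, adjusted p = 0.0589), an alternative added after the data had been seen. In that fit 9 cytosolic genes were called, all of the 10 except MARS (0.67, adjusted p = 0.0689). The other 15 mitochondrial genes had fold changes of -0.20 to 0.30. PARS2, the proline enzyme, had copper libraries at 8.55, 8.59 and 9.95 CPM above controls at 5.91, 8.25 and 7.93 CPM, a difference of 0.29 on the log2 scale (SE 0.14, adjusted p = 0.311).

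Pairs of genes for the same amino acid were compared by their level per length. The level per length of CARS relative to CARS2 went from 1.89 ± 0.214 in the control to 5.88 ± 0.154 with copper, and that of AARS relative to AARS2 from 6.73 ± 1.57 to 18.3 ± 4.28 (SD, n = 3). CARS2 shares 326 exon bases with ING1, and AARS2 235 with TMEM151B, both on the other strand. IARS was below IARS2 in the control, at a ratio of 0.814 ± 0.0328, and above it with copper, at 1.40 ± 0.00696. For arginine the ratio of RARS to RARS2 was 2.09 ± 0.067 and 2.06 ± 0.0819.

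Other genes of amino acid supply and of the stress response were read from fixed lists. With copper 8 of 16 integrated stress response regulators rose: ATF4 itself by 1.41 (SE 0.11), its partner CEBPG by 1.36 (SE 0.14), and also ATF3, CEBPB, DDIT3, NUPR1, PPP1R15A and TRIB3. NUPR1 stayed near 0, at 0.0821, 0.0331 and 0.032 CPM in the controls and 0.495, 0.728 and 0.824 CPM with copper. ATF4 was at 136, 164 and 167 CPM in the controls and at 396, 417 and 427 CPM with copper. Of 12 genes of amino acid synthesis 8 rose, among them ASNS, asparagine synthetase, by 1.96 (SE 0.14) and PSAT1, of serine synthesis, by 1.64 (SE 0.12). Of 8 tested amino acid transporters 7 rose, led by the cystine importer SLC7A11 with 3.59 (SE 0.23). In contrast none of the 3 scaffold genes of the multisynthetase complex was called, nor any of 9 accessory genes of tRNA charging, 9 mitochondrial translation factors or 5 cytosolic elongation factors. At an unadjusted p under 0.05 these 4 lists had 2, 4, 1 and 0 genes. The share of all genes at that threshold is not given here, so these counts cannot be read against it. DESeq2 (7.57% of all genes) called 1 scaffold gene and none of the other 3 lists, and limma-voom (5.81%) called none of the 4. Among the scaffolds AIMP1 had -0.06, AIMP2 0.33 (adjusted p = 0.139) and EEF1E1 -0.53 (adjusted p = 0.0676).

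IFN for 24 h raised WARS far more than any other synthetase gene. WARS lies on chromosome 14 (100333788 to 100376805, minus strand, GRCh38). It was at 130, 146 and 122 CPM in the 24 h control and at 5310, 4620 and 3320 CPM with IFN. The log2 fold change was 5.06 (SE 0.18, 95% interval 4.69 to 5.43, adjusted p = 2.26e-14), a 33.4-fold difference, and 4.80 with GC correction. Its adjusted p was at most 6.9e-08 and at least 4.48e-209 in the other settings. The exons of WARS share 287 bases with WDR25 on the other strand. WARS2, the mitochondrial tryptophan enzyme, had a log2 fold change of -0.09 (SE 0.12), at 15.3, 14.1 and 15.3 CPM without and 14.6, 14.0 and 13.6 CPM with IFN. The per-length ratio of WARS to WARS2 went from 8.09 ± 1.15 to 284 ± 55.8 (SD, n = 3).

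DC and TEPA were also given with IFN. WARS was at 142, 156 and 126 CPM with DC and at 4740, 3900 and 3270 CPM with DC and IFN, a log2 difference of 4.82 (SE 0.18). With TEPA it was at 132, 154 and 122 CPM, and with TEPA and IFN at 4130, 3680 and 3370 CPM, a log2 difference of 4.78 (SE 0.18). The libraries of the 3 groups with IFN overlapped one another. The test of whether the IFN response of WARS differed gave -0.24 with DC (95% interval -0.69 to 0.20, adjusted p = 0.918) and -0.28 with TEPA (-0.73 to 0.16, adjusted p = 1). Against IFN alone, WARS with TEPA and IFN had -0.24 (SE 0.15, adjusted p = 0.635), but it was called lower (adjusted p = 0.036) when the 6 libraries were fitted alone with the library number as a block. That fit called 19.7% of all genes. The library numbers do not pair throughout there, with correlations of 0.0681, 0.538 and 0.559 between the deviations of same-numbered libraries. IDO1, which breaks down tryptophan, was at 0.034, 0.0672 and 0 CPM in the 24 h control and at 243, 178 and 90.3 CPM with IFN. Both genes were highest in IFN library 1 and lowest in library 3. IDO1 and WARS were the 2 called of 4 tested genes of tryptophan use, and KMO and AFMID, later in the breakdown pathway, were not called.

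**Figure D3:**
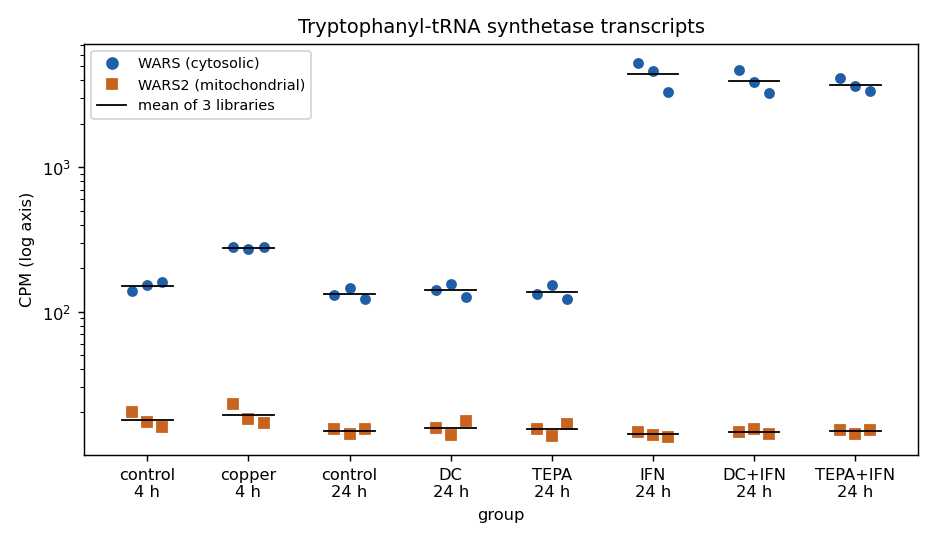
CPM of WARS (circles) and WARS2 (squares) in each library of the 8 groups, on a log axis, with the mean of the 3 libraries as a line. WARS lies between 122 and 160 CPM in the 4 groups with neither IFN nor copper, at 273 to 279 CPM with copper and at 3270 to 5310 CPM in the 3 groups with IFN, while WARS2 stays between 13.6 and 22.7 CPM.

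Besides WARS, 6 cytosolic genes rose with IFN and none fell, so 7 of 19 were called. In the mitochondrial set 3 of 16 rose and 1 fell. Over all genes 18.8% were called, 10% higher and 8.8% lower, so that 4 of 16 mitochondrial calls was near the share of all genes. The median log2 fold change was 0.27 in the cytosolic and 0.16 in the mitochondrial set, beside 0.01 over all genes. With GC correction the medians became 0.15 and -0.04. The cytosolic calls then were 7 higher and 1 lower, while the mitochondrial calls turned to 1 higher and 6 lower. In that fit 38.9% of all genes were called, so both counts were near that share. The split of that share into higher and lower is not given here. The sign of the mitochondrial median with IFN thus depended on this correction.

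CARS was at 38.2, 45.1 and 39.4 CPM in the control and at 81.4, 78.3 and 61.3 CPM with IFN. It rose by 0.85 (SE 0.16, adjusted p = 7.74e-04), and by 0.51 with GC correction. AARS was at 97.5, 107 and 89.6 CPM and at 182, 181 and 133 CPM, a rise of 0.75 (SE 0.18), and of 0.39 with GC correction. KARS had the narrowest spread, with 312, 330 and 300 CPM in the control and 441, 405 and 422 CPM with IFN. Its rise of 0.43 (SE 0.06, adjusted p = 1.25e-05) was 0.43 with GC correction too. KARS, not called with copper, shares 176 exon bases with TERF2IP on the other strand.

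The other 3 called cytosolic genes were less firm. YARS went from 109, 115 and 101 CPM to 167, 160 and 135 CPM, 0.51 (SE 0.09), yet had 0.00 (adjusted p = 0.996) with GC correction. Its transcript has 55.7% GC. SARS had 0.38 (SE 0.11), and lost its call with GC correction (0.15, adjusted p = 0.0539) and without control library 1 or 3 or IFN library 1 or 2 (adjusted p 0.0912 to 0.11). MARS had 0.60 (SE 0.20, adjusted p = 0.0461), and kept the call in only 1 of the 6 fits that left out a library, the one without IFN library 3. The adjusted p in the other 5 was 0.0507 to 0.175. FARSA, with 1.43 (SE 0.61), and VARS, with 0.92 (SE 0.40), had larger estimates but were not called (both adjusted p = 0.0978). With GC correction they had 0.62 and 0.00. RARS and TARS, not called without the correction (0.08 and 0.27), were called with it, at 0.19 and 0.35.

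Of the mitochondrial genes LARS2, the leucine enzyme on chromosome 3 (45388506 to 45549421), rose with IFN in every setting tried. It was at 46.1, 50.3 and 44.6 CPM in the control and at 91.8, 86.4 and 74.8 CPM with IFN. The log2 fold change was 0.84 (SE 0.10, adjusted p = 4.05e-06), and 0.65 with GC correction. LARS, its cytosolic counterpart, had -0.15 (SE 0.15), and the per-length ratio of LARS to LARS2 went from 12.9 ± 1.36 to 6.51 ± 1.06 (SD, n = 3). RARS2, the arginine enzyme on chromosome 6 (87514378 to 87590003), fell in every setting tried against the 24 h control. It was at 97.3, 88.8 and 93.9 CPM in the control and at 55.7, 51.5 and 64.0 CPM with IFN, a difference of -0.71 on the log2 scale (SE 0.15, adjusted p = 0.00276), and -0.61 with GC correction. RARS had 0.08 (SE 0.15), and the ratio of RARS to RARS2 went from 2.44 ± 0.0952 to 4.23 ± 0.0526. LARS2 and RARS2 moved in opposite directions, each without overlap between its groups. LARS was called in neither fit, and RARS was called, as higher, with GC correction. Such separation of the groups was found upward in 29.7% and downward in 27.4% of all genes. With GC correction (38.9% of all genes called) AARS2, CARS2, HARS2, IARS2 and NARS2 were called lower too, as was QARS in the cytosolic set. IARS2 and NARS2 were also called lower when only the compared libraries were fitted (47.8% of all genes). NARS2 was called lower with GC correction in the IFN comparisons with DC (26.9%) and TEPA (32.5%) as well, and CARS2 in that with TEPA.

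The other 2 mitochondrial calls were not kept with GC correction. EARS2, the glutamate enzyme and the gene with the interferon-stimulated motif shown above, was at 52.7, 51.8 and 52.8 CPM in the control and at 66.0, 60.7 and 62.2 CPM with IFN. It rose by 0.26 (SE 0.06), had 0.03 (adjusted p = 0.666) with GC correction and lost the call without IFN library 1 (adjusted p = 0.0533). EARS2 overlaps UBFD1 on the other strand by 370 exon bases. FARS2, the phenylalanine enzyme, rose by 0.41 (SE 0.13, adjusted p = 0.028), and had -0.07 with GC correction. It kept the call only without IFN library 3, among the fits that left out a library (adjusted p 0.0612 to 0.136 in the other 5). SARS2 and VARS2, at 61.2% and 60.2% GC, had 1.21 and 1.03 with wide errors and were not called. SARS2 shares 1492 exon bases with AC011455.2 and VARS2 1858 with GTF2H4, both on the same strand.

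**Figure D4:**
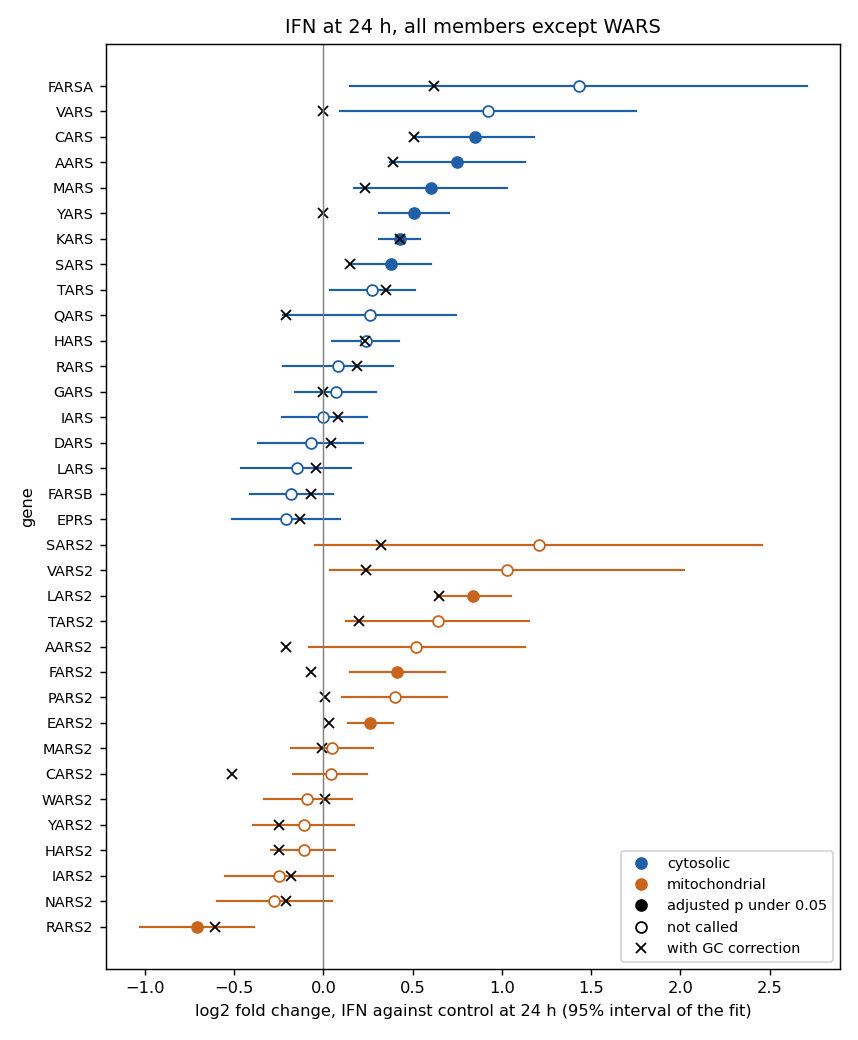
Log2 fold change of the 34 genes other than WARS with IFN against the control at 24 h, with the 95% interval of the fit; cytosolic genes in blue, mitochondrial genes in orange, filled points for an adjusted p under 0.05, crosses for the value with GC correction. The crosses of CARS, AARS, KARS and LARS2 stay above 0 and that of RARS2 below 0, while those of YARS, EARS2 and FARS2 lie at 0.00, 0.03 and -0.07.

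In the presence of DC or TEPA the same comparison gave similar members. With DC, IFN raised CARS (0.59), KARS (0.42), WARS and YARS (0.37) among the cytosolic genes and EARS2 (0.32) and LARS2 (0.76) among the mitochondrial ones, and lowered RARS2 (-0.55), beside 9.82% of all genes called. CARS kept its call only without DC library 2, among fits that left out a library (adjusted p 0.0613 to 0.172 in the other 5), as did YARS (0.0506 to 0.138). RARS2 lost it without DC library 1 or 3 or without library 3 of DC with IFN (0.0535 to 0.076). With TEPA, IFN raised 9 cytosolic genes, beside 14.2% of all genes called. They were CARS (1.02), AARS (0.85), YARS (0.83), MARS (0.63), SARS (0.52), TARS (0.46), GARS (0.41), KARS (0.41) and WARS, and the mitochondrial calls were EARS2 (0.28), FARS2 (0.42) and LARS2 (0.77), higher, and RARS2 (-0.70), lower.

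GARS was at 281, 266 and 246 CPM with TEPA and at 364, 338 and 351 CPM with TEPA and IFN, and lost the call without TEPA library 3 (adjusted p = 0.0732) or library 1 of TEPA with IFN (0.0518). MARS and FARS2 each lost it in 5 of the 6 fits without a library and kept it only without TEPA library 2 (adjusted p 0.0794 to 0.27 and 0.0647 to 0.172 in the others). FARS2 also lost it with GC correction (0.08, adjusted p = 0.697). EARS2 lost it without TEPA library 1 (0.0533) or library 2 of TEPA with IFN (0.0547), and with GC correction (0.10, adjusted p = 0.162). With DC, YARS lost its call with GC correction (0.12, adjusted p = 0.645). With GC correction the medians of the mitochondrial set were -0.10 with DC and -0.11 with TEPA, against 0.07 and 0.09 without it. The difference in the IFN response itself was called for none of the 35 genes, with DC or with TEPA, by edgeR (0% of all genes in both), DESeq2 or limma-voom. At an unadjusted p under 0.05 there were 0 members for DC (0.969% of all genes) and 2 for TEPA (1.4% of all genes), YARS (0.32, 95% interval 0.05 to 0.60) and GARS (0.34, 0.02 to 0.66). All these comparisons with IFN share libraries with those of DC and TEPA.

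The counts of list genes with IFN are read beside the 10% of all genes that rose and the 8.8% that fell. Of the stress response regulators 7 of 16 rose, including ATF4 with 0.55 (SE 0.11), DDIT3 with 1.87 (SE 0.28) and EIF2AK2, the kinase PKR, with 2.17 (SE 0.16). With GC correction ATF4 had -0.01 (adjusted p = 0.959). Of 12 genes of amino acid synthesis 2 rose (ASNS with 0.47 and GPT2 with 0.87) and 1 fell (GOT1, -0.25), and of 8 transporters 3 rose. AIMP2 was the 1 scaffold gene called (0.40, SE 0.12), and had 0.17 (adjusted p = 0.091) with GC correction. MTFMT, which formylates the mitochondrial initiator tRNA, fell by 0.40 on the log2 scale and was the 1 called of 9 accessory genes. No mitochondrial translation factor was called by edgeR, DESeq2 or limma-voom, with 2 of 9 at an unadjusted p under 0.05. The share of all genes at that unadjusted threshold is not given here. EEF1A1 and EEF1B2, cytosolic elongation factors, were the 2 of 5 called, with -0.24 and -0.46.

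No member was called for DC or TEPA alone, or for the addition of either to IFN, in the fit of all 24 libraries without GC correction. With DC 0 of 35 genes were called, beside 0.0136% of all genes, with none at an unadjusted p under 0.05 (0.921% of all genes) and none by DESeq2 or limma-voom. The lowest p among them was that of SARS (0.19, 95% interval -0.03 to 0.41), and KARS had the narrowest interval among the cytosolic genes named here, -0.14 to 0.09. With DC and IFN against IFN 0 of 35 were called, beside 0.0205% of all genes, again with none at an unadjusted p under 0.05 (2.29% of all genes) and none by the other tools. The lowest p was that of PARS2, with -0.16 (SE 0.14).

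With TEPA 0 of 35 genes were called, beside 1.06% of all genes, by edgeR, DESeq2 or limma-voom, and 1 cytosolic and 2 mitochondrial genes had an unadjusted p under 0.05, as had 9.73% of all genes. GARS was lowest in p. Its TEPA libraries, at 281, 266 and 246 CPM, lay below the controls at 331, 357 and 305 CPM, a difference of -0.33 on the log2 scale (SE 0.11, adjusted p = 0.205). With GC correction, which called 8.58% of all genes, the adjusted p of GARS was 0.03. The library numbers pair in this comparison, although only 2 of the 3 TEPA libraries correlated best with the control of their own number. GARS was lower in each pair, as it would be in any pairing, since its groups do not overlap. With the library number as a block its adjusted p was 0.0754 over all libraries and 0.0319 over the 6 compared, where it was the 1 member called, and with the block and GC correction GARS was called lower and DARS and RARS2 higher (10.1% of all genes). EARS2 (0.17, SE 0.06) and HARS2 (-0.18, SE 0.08) were the mitochondrial pair. With TEPA and IFN against IFN 0 of 35 were called, beside 1.9% of all genes, and none by DESeq2 or limma-voom. EARS2 (0.18, SE 0.06) and YARS (0.26, SE 0.09) had an unadjusted p under 0.05, as had 11.7% of all genes. With GC correction EARS2 (0.20, adjusted p = 0.0194), SARS (0.22, adjusted p = 0.0208) and IARS were called as higher, beside 13.2% of all genes. With only the 6 libraries and the block (19.7% of all genes), IARS, SARS, YARS, EARS2 and IARS2 were called higher and HARS and WARS lower. EARS2 was at 66.0, 60.7 and 62.2 CPM with IFN and at 70.6, 74.0 and 69.5 CPM with TEPA and IFN. For comparison among the list genes, SLC7A11 fell with TEPA (-1.19, SE 0.22), and PSPH (0.52, SE 0.08) and NUPR1 rose with TEPA and IFN against IFN. NUPR1 stayed near 0, at 0.07, 0.0719 and 0.0318 CPM with IFN and 0.314, 0.529 and 0.28 CPM with TEPA and IFN.

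Untreated cells at 24 h differed from those at 4 h in 1 cytosolic gene and no mitochondrial one, beside 9.69% of all genes. HARS, the histidine enzyme, was at 109, 133 and 138 CPM at 4 h and at 96.8, 107 and 94.3 CPM at 24 h. It fell by 0.35 on the log2 scale (SE 0.09, adjusted p = 0.0192). The call was lost without library 1 or 3 at 24 h or library 2 or 3 at 4 h (adjusted p 0.0841 to 0.126), and HARS shares 437 exon bases with HARS2, which lies head to head with it. At an unadjusted p under 0.05 there were 4 cytosolic and 3 mitochondrial genes (33.1% of all genes). DESeq2 (17% of all genes) and limma-voom (9.64%) each called HARS and 1 mitochondrial gene, MARS2 (-0.35, SE 0.11, adjusted p = 0.0512 in edgeR). Without library 1 of the 4 h control, the one with a GC difference of -1.34, the calls were 11 cytosolic (4 higher, 7 lower) and 9 mitochondrial genes (3 higher, 6 lower), beside 49.8% of all genes.

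Across all 8 groups the level of the cytosolic set relative to the mitochondrial set was read as the ratio of the median CPM per kb of each set in a library. The ratio was 6.2, 6.78 and 5.96 in the 4 h control and 10.6, 9.96 and 9.86 with copper. In the 24 h control it was 6.01, 6.42 and 5.76, with DC 6.43, 6.23 and 6.14, and with TEPA 5.51, 5.86 and 5.1. It was 8.16, 7.98 and 6.84 with IFN, 7.82, 7.19 and 7.68 with DC and IFN, and 9.94, 8.25 and 7.77 with TEPA and IFN. Every copper library was above every 4 h control library, and every library with IFN was above every 24 h library without it. A second measure centred each gene on its mean log2 CPM over the 24 libraries. The cytosolic median less the mitochondrial one was 0.06, -0.24 and -0.23 in the 4 h control and 0.39, 0.42 and 0.36 with copper. It was -0.11, 0.02 and -0.14 in the 24 h control and 0.05, -0.03 and -0.04 with IFN, so these groups overlapped. With DC or TEPA present, every library with IFN lay above those without it. Neither measure has GC correction. The median mitochondrial level itself ranged from 7.77 to 9.86 CPM per kb over the 24 libraries, and the cytosolic one from 48.1 to 90.1. No p is given for either measure, since the members are not replicates.

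**Figure D5:**
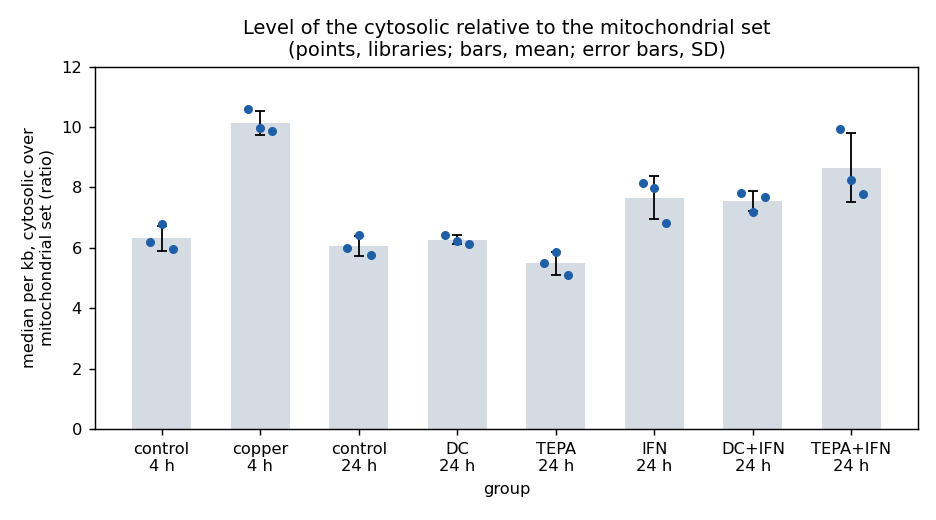
Ratio of the median CPM per kb of the 19 cytosolic genes to that of the 16 mitochondrial genes, for each library (points) with the mean (bars) and SD of the 3 libraries of a group. The mean is 10.14 with copper against 6.31 in the 4 h control, between 5.49 and 6.27 in the 24 h groups without IFN, and between 7.56 and 8.65 in the 3 groups with IFN.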

How the data were processed

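RNA-seq of 24 SH-SY5Y libraries (8 groups of 3) was analysed from the deposited whole-number read counts per gene, which carry no normalization. Per the submitters' processing notes, the authors used STAR 2.5a, RSEM 1.2.31 and build hg38. Per the labels' protocols the kit was a stranded mRNA kit. The annotation, the strand setting of the counting and any filter are not given in the sources used here, so genes that share exon bases are uncertain. For all 24 libraries the single list equals its column of the table.

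Computed here with R 4.3.3: filterByExpr of edgeR 4.0.16 (minimum count 10) left 14654 genes, scaled by TMM, and 1 quasi-likelihood model of 8 group means was fitted to all libraries (16 residual degrees of freedom, biological coefficient of variation 0.207). The 11 comparisons were contrasts, adjusted by Benjamini-Hochberg over all genes and called under 0.05. CPM use TMM-scaled totals. Transcript length and GC content (longest coding transcript) came from GENCODE 29, and 93.8% of tested genes had a GC content. GC correction took a spline of log2 CPM on GC (4 degrees of freedom) per library as an offset. Alternatives were DESeq2 1.42.0, its size factors, limma-voom (limma 3.58.1), no filter, the compared libraries alone, a replicate block, and each library left out. The method was tested on simulated data.

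Labels number the libraries 1 to 3 in each group. Same-numbered libraries deviated together in copper against control (correlations of their deviations 0.866, 0.35 and 0.817), DC (0.154, 0.55 and 0.229), TEPA (0.363, 0.575 and 0.232) and TEPA with IFN against TEPA (0.294, 0.558 and 0.226), by which the numbers pair the samples there, as a hint from the data since no label says what a number marks. In each of these comparisons only 2 of the 3 libraries correlated best with the library of their own number. In the other comparisons at least 1 correlation was under 0.1.

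All 35 genes are drawn in the colour map of levels by library, but not every gene is named in the text. Values in every library are printed for WARS and for several other called members with copper or with IFN. In the IFN comparisons with DC or TEPA most called members have none printed. Where no member was called, the one with the lowest p has them for TEPA, but not for DC or for DC with IFN against IFN. Values of some others are given where a call was unstable, chosen after their values were seen. Members and the 14 gene lists were chosen with earlier results of these data known. A marker gene and a promoter motif that were also examined are not reported here.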

Additional observations from a re-analysis of the deposited data

How the results depend on the processing

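WARS with IFN kept its call and direction in all settings. Of the other 42 member calls, 42 kept direction and call with DESeq2, 42 with limma-voom, 42 with the replicate block over all libraries, 40 with DESeq2 size factors, 38 with no filter, 32 with only the compared libraries and 35 with GC correction (1 reversed, 6 lost). With a library left out, 200 of 252 refits kept the call and 52 lost it. The reversed value was FARS2 with IFN, -0.07 with GC correction and -0.07 with it and the block.

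With GC correction, cytosolic calls were 1 for TEPA, 2 for TEPA with IFN against IFN and 6 for 24 h against 4 h, and mitochondrial calls 7 for IFN, 1 for TEPA with IFN against IFN and 4 for 24 h against 4 h. The share of all genes called there was 8.58% for TEPA and 38.9% for IFN. It was 13.2% for TEPA with IFN against IFN and 26.5% for 24 h against 4 h. Medians became 0.15 (cytosolic) and -0.04 (mitochondrial) for IFN, 0.10 and -0.10 for IFN with DC, -0.11 (mitochondrial) for IFN with TEPA, and 0.06 (mitochondrial) for 24 h against 4 h. With GC correction and the replicate block, mitochondrial calls were 2 for copper, 1 for TEPA, 7 for IFN, 2 for TEPA with IFN against IFN and 4 for 24 h against 4 h, and cytosolic calls 2 for TEPA, 2 for TEPA with IFN against IFN and 6 for 24 h against 4 h. The share of all genes called in that fit was 22.8% for copper, 10.1% for TEPA and 43% for IFN. It was 14.7% for TEPA with IFN against IFN and 30% for 24 h against 4 h. In the comparisons whose library numbers pair, the block alone over all libraries moved no count of calls by over 1.5 times. In the others it gave 7 mitochondrial calls for IFN (29.6% of all genes) and 1 for 24 h against 4 h, as did DESeq2 size factors, DESeq2 and limma-voom for the latter (1 each). For 24 h against 4 h the share of all genes was 15.4% with the block and 9.82% with the size factors. It was 17% with DESeq2 and 9.64% with limma-voom.

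With only the compared libraries (fewer samples), cytosolic calls were 5 for copper, 11 for IFN and 0 for 24 h against 4 h, and mitochondrial calls 0 for copper, 10 for IFN and 2 for IFN with TEPA. The share of all genes called there was 0.438% for copper, 47.8% for IFN, 8.43% for IFN with TEPA and 0.00725% for 24 h against 4 h. With the replicate block there, cytosolic calls were 1 for TEPA, 13 for IFN, 5 for TEPA with IFN against IFN, 2 for IFN with DC and 0 for 24 h against 4 h, and mitochondrial calls 10 for IFN, 2 for TEPA with IFN against IFN, 1 for IFN with DC and 7 for IFN with TEPA. The share of all genes was then 1.78% for TEPA, 51.7% for IFN, 19.7% for TEPA with IFN against IFN, 3.97% for IFN with DC, 30.7% for IFN with TEPA and 0% for 24 h against 4 h. Without library 1 of both 4 h groups (added after the data had been seen) 0 mitochondrial genes were called with copper. Except where a setting has fewer samples, the cause was not tested.

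Leaving out 1 library gave cytosolic calls of 9 to 10 for copper, 5 to 7 for IFN, 2 to 4 for IFN with DC, 7 to 9 for IFN with TEPA and 0 to 11 for 24 h against 4 h. Mitochondrial calls were 0 to 1, 2 to 5, 2 to 3, 2 to 4 and 0 to 9. Cytosolic medians were 0.45 to 0.64 for copper, 0.00 to 0.16 for DC and 0.10 to 0.27 for IFN with DC. Mitochondrial medians were -0.12 to 0.01 for copper, 0.01 to 0.10 for IFN with DC and -0.20 to -0.05 for 24 h against 4 h. With 3 libraries a group, genes of high GC content had the widest intervals.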
